A study of Mus musculus with 3 samples.

Results

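The genes described here were 35 aminoacyl-tRNA synthetase genes of the mouse, taken by symbol from a list of 35 names and found for all 35 among 55536 annotated genes. They comprised 19 genes for enzymes of the cytosol and 16 for enzymes of the mitochondrion, and the list does not hold every such gene of the mouse. RNA bound to chromatin, which is rich in transcripts still being made or spliced, was sequenced after ribosomal RNA depletion from bone-marrow-derived macrophages of the C57BL/6J strain, primary phagocytes grown from bone marrow. Lipid A, the membrane-anchored portion of lipopolysaccharide sensed through TLR4, was applied at 100 ng/ml for 12 h and washed out for 12 h, and 100 ng/ml was then added again for 15 min. This was the one group analysed, with 3 libraries numbered as biological replicates 1, 2 and 3 and begun from 1000, 250 and 500 ng of RNA. The labels name no genotype other than the strain, give no age, and tie all 3 libraries to 1 donor identifier and do not say that separate animals were used, so some of the spread among libraries may be technical.

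Aminoacyl-tRNA synthetases join each amino acid to its own transfer RNA, the step that fixes the genetic code before the ribosome reads it. The cytosolic and mitochondrial enzymes for an amino acid are mostly encoded by separate nuclear genes, and several cytosolic enzymes sit in a multisynthetase complex held together by scaffold proteins. Many cytosolic enzyme genes are known targets of ATF4, the transcription factor of the integrated stress response, which cells use when amino acids run short, and the tryptophan enzyme gene Wars is known in human cells as an interferon-induced gene.

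All 35 genes were detected, meaning a mean expected count of at least 10, as were 15873 genes in all, of which 11755 were protein-coding. Their counts were well above this limit, with 34 of 35 at a mean of at least 100, and the exception was the mitochondrial proline enzyme gene Pars2 with 54, 73 and 77 counts in replicates 1, 2 and 3. The libraries totalled 14609979, 17423948 and 24162551 expected counts, so replicate 3 was the deepest. All 6 macrophage markers were detected, with a summed level of 748, 747 and 663 TPM in replicates 1, 2 and 3, where TPM is a transcript's length-scaled share of its library, set to the same total in each. The highest of them was Adgre1 at 330 ± 56 TPM (SD, n = 3) and the lowest Itgam at 35.4 ± 7.0 TPM. None of 5 neutrophil, 4 T cell, 3 B cell and 3 mast cell or basophil markers was detected, and 1 of 4 dendritic, 3 of 4 stromal and 1 of 3 erythroid markers were. Among the markers listed at 0 in every library were Elane, Cd3e, Pdgfra, Hbb-bt, Cpa3, Mcpt8 and Fcer1a. The detected erythroid marker was Alas2, with 10.4 ± 1.8 TPM, whereas Zbtb46 of the dendritic and Acta2 and Col1a1 of the stromal markers had 1.58, 0.82 and 0.29 TPM on average. In the read-based tables, a second quantification deposited for each library, Cd3d had 15.2 ± 2.4 TPM against 0.017 ± 0.029 in the alignment-based tables. In such bulk RNA a smaller number of cells of a type and less RNA per cell cannot be told apart.

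Promoter windows from RefSeq (GRCm38.p6, 250 bases before to 50 after the annotated start) were matched by symbol for 26 of the 35 genes, and Cars, Rars, Wars, Vars, Hars, Lars, Nars, Pars2 and Hars2 had no entry. The windows were searched on both strands for TGATGNAA, the C/EBP-ATF response element that ATF4 dimers bind. It was found in 5 of 12 cytosolic and 0 of 14 mitochondrial windows, against 4.51% of all 27025 genes in the table. The 5 windows are shown because the library differences reported for the cytosolic genes are set beside ATF4 target genes. Each is written 5′ to 3′ on the strand of its gene, with the element in capitals.
Aars, alanine enzyme, chr8:111033592-111033891, plus strand: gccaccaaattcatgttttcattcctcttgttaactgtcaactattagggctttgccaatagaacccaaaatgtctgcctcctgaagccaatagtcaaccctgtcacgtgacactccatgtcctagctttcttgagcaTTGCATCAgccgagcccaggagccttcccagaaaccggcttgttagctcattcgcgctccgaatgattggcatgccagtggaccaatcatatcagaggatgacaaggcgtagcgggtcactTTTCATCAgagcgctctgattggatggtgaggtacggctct
Gars, glycine enzyme, chr6:55037751-55038050, plus strand: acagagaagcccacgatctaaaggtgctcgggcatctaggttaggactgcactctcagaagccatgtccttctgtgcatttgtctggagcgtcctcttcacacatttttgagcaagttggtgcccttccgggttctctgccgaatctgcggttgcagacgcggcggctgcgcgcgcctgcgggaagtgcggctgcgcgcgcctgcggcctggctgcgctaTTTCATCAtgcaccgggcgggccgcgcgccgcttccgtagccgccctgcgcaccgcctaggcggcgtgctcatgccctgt
Iars, isoleucine enzyme, chr13:49681880-49682179, plus strand: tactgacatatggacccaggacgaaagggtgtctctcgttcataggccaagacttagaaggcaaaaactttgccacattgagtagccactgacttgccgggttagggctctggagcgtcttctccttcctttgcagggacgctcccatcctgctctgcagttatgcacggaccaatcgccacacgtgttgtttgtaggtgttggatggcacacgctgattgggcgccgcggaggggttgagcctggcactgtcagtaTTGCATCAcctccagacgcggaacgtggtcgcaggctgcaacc
Tars, threonine enzyme, chr15:11399609-11399908, minus strand: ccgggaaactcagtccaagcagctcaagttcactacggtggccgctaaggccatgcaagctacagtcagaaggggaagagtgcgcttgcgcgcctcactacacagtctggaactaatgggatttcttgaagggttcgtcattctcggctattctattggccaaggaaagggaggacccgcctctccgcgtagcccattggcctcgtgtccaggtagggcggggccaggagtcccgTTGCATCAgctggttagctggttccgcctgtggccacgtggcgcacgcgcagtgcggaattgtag
Yars, tyrosine enzyme, chr4:129189653-129189952, plus strand: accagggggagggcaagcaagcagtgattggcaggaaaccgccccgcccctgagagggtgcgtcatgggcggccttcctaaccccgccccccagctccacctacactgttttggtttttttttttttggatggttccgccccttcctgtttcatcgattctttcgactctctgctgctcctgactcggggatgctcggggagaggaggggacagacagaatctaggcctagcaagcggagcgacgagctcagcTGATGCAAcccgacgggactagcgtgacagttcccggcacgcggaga
The Aars window held 2 elements, beginning 112 bases before the start and at base 10 after it, whereas the others held 1 each. The first base of the element lay 30 bases before the start in Gars and 15 before it in Tars, and at base 8 of the transcript in Iars and base 4 in Yars.

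Each of 3 other motifs was found in at most 5 of the 26 genes with a window. The interferon-stimulated response element core GAAANNGAA was found in Qars and in no mitochondrial window, against 9.76% of genes. The interferon gamma activated site TTCNNNGAA was found in Aars, Kars and Nars2, against 9.55% of genes. The E-box CACGTG was found in 4 of 12 cytosolic windows, Aars, Farsb, Iars and Tars, and 1 of 14 mitochondrial ones, Ears2, against 8.09% of genes. Aars, Iars and Tars held both this motif and TGATGNAA. Matches of different motifs that overlap were each counted. A match describes the letters of a window and does not show binding, and a window without a match says only that the letters are not in it.

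Cytosolic enzyme genes carried more chromatin RNA than mitochondrial ones. The median of log2(TPM + 1) over the 19 cytosolic genes was 4.42, 4.50 and 4.79 in replicates 1, 2 and 3, and over the 16 mitochondrial genes it was 3.05, 3.20 and 3.20. The groups of values did not overlap, and the detected protein-coding genes lay between them at 3.43 ± 0.03 (SD, n = 3). Within libraries the cytosolic median exceeded the mitochondrial one by 1.37, 1.30 and 1.59, a mean of 1.42 ± 0.15 on the log2(TPM + 1) scale. An exact two-sided sign-flip test over the 3 libraries gave p = 0.25, the smallest p that 3 libraries allow. The read-based tables gave a difference of 1.75 ± 0.37. A mean of at least 10 TPM was reached by 24 of 35 genes, against 49.5% of detected protein-coding genes, and these were 17 of 19 cytosolic and 7 of 16 mitochondrial genes.

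Among the listed enzymes of the multisynthetase complex, Eprs, Qars and Lars were the highest. Eprs (chr1:185363044-185428360), whose single protein charges both glutamate and proline tRNAs, had 54.9, 37.3 and 59.7 TPM in replicates 1, 2 and 3. Qars, the glutamine enzyme gene, had 37.9, 61.4 and 44.4 TPM. Lars, the leucine enzyme gene, had 46.9, 42.7 and 44.9 TPM. Replicate 2 was low in Eprs and high in Qars, whereas the libraries lay close together in Lars. Rars, for arginine, had 30.5 ± 5.3 TPM (SD, n = 3). Dars, for aspartate, had 15.3 ± 1.2 TPM and Iars, for isoleucine, 14.7 ± 1.4 TPM, values that differed by less than their spread. Kars, whose gene supplies the lysine enzyme of both compartments, was the lowest cytosolic gene at 5.57 ± 0.50 TPM. Of the complex's scaffold genes, Aimp1 had 14.9 ± 0.9 TPM, Aimp2 3.39 ± 0.67 TPM and Eef1e1 3.31 ± 1.28 TPM, so the last 2 lay below all 19 cytosolic enzyme genes.

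The other cytosolic enzyme genes ranged from 70.2 to 9.12 TPM. Cars (chr7:143557230-143600090), for cysteine, was the highest of all 35 genes, with 82.2, 55.2 and 73.3 TPM in replicates 1, 2 and 3. Nars, for asparagine, followed with 70.2, 58.1 and 71.5 TPM. These genes overlapped in their libraries, and their means exceeded those of 91.9% and 91.2% of detected protein-coding genes. Sars, for serine, had 41.8 ± 9.0 TPM, Yars, for tyrosine, 31.9 ± 2.7 TPM, and Aars, for alanine, 28.6 ± 7.3 TPM. Vars, for valine, had 24.1 ± 3.7 TPM. Farsb and Farsa encode the beta and alpha subunits of the cytosolic phenylalanine enzyme, and had 21.3 ± 0.7 and 20.5 ± 2.6 TPM, a difference smaller than the spread of Farsa. The read-based tables set them apart, with 42.3 ± 2.0 TPM for Farsb and 23.9 ± 2.1 TPM for Farsa. Wars, for tryptophan, had 20.4, 12.4 and 16.6 TPM in replicates 1, 2 and 3. Tars, for threonine, had 15.1 ± 1.6 TPM, and Gars, which like Kars serves both compartments, had 13.5 ± 1.5 TPM. Hars, for histidine, was the lowest of them at 9.12 ± 1.12 TPM.

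The mitochondrial genes ranged from 43.1 to 1.98 TPM on average. Cars2 (chr8:11513977-11550783), the mitochondrial cysteine enzyme gene, was the highest with 38.2, 46.1 and 45.1 TPM in replicates 1, 2 and 3. Hars2, for histidine, had 33.8 ± 0.9 TPM, Fars2, the single-chain mitochondrial phenylalanine enzyme gene, 31.3 ± 2.2 TPM, and Tars2, for threonine, 29.4 ± 2.1 TPM. Fars2 and Tars2 differed by less than their spread. Iars2, for isoleucine, had 17.5 ± 0.7 TPM, Lars2, for leucine, 16.0 ± 2.5 TPM, Rars2, for arginine, 14.5 ± 1.5 TPM, and Vars2, for valine, 9.88 ± 0.43 TPM. Below them, Nars2, for asparagine, had 4.16, 6.92 and 7.0 TPM, with replicate 1 the lowest. The means of Aars2, Sars2, Wars2 and Yars2, for alanine, serine, tryptophan and tyrosine, were 5.04 ± 1.09, 4.32 ± 0.33, 4.31 ± 0.59 and 4.13 ± 0.63 TPM, which overlapped. Ears2, whose product charges glutamate onto glutamate and glutamine tRNAs in mitochondria, had 2.44 ± 0.47 TPM. Pars2, for proline, had 2.25 ± 0.36 TPM and Mars2, for methionine, 1.98 ± 0.34 TPM, and the libraries of these 3 lowest genes overlapped. The subunit genes of the amidotransferase that turns the glutamate on mitochondrial glutamine tRNA into glutamine had higher levels than Ears2, with 16.3 ± 1.8 TPM for Gatc, 10.6 ± 1.4 for Qrsl1 and 6.41 ± 0.74 for Gatb.

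**Figure D1:**
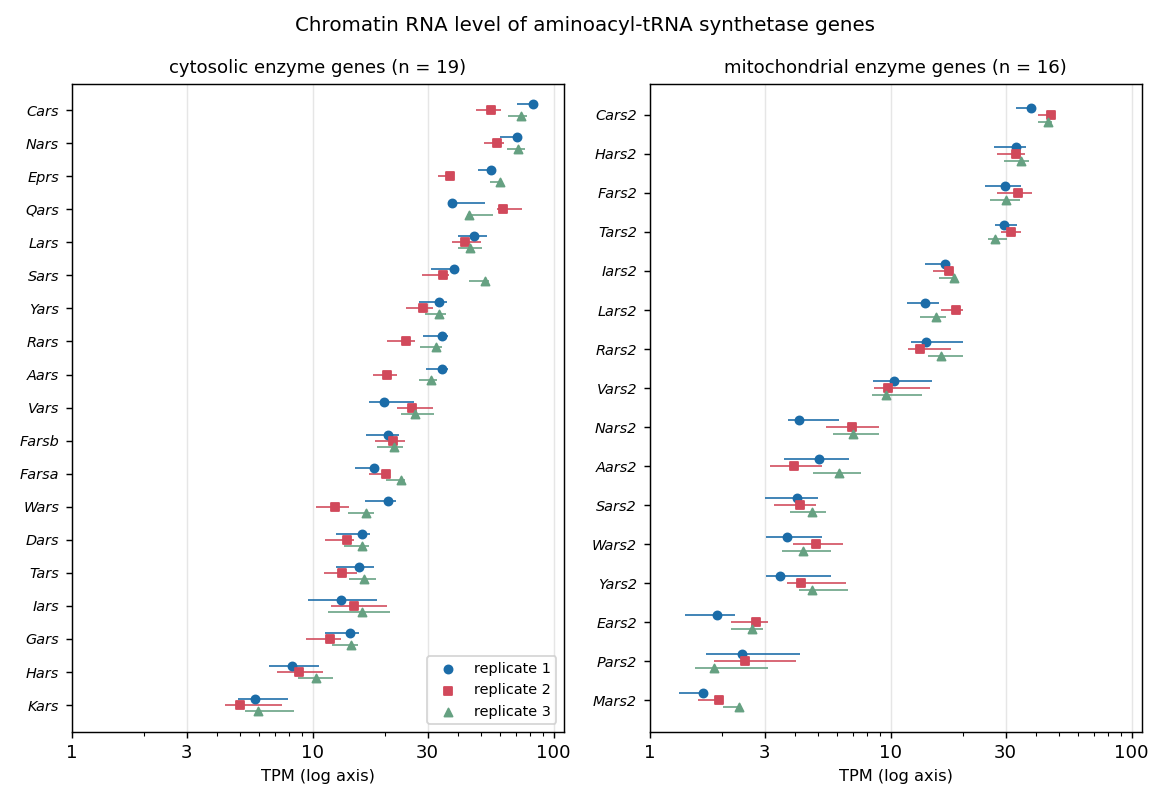
Level of the 35 enzyme genes in TPM (log axis), cytosolic at left and mitochondrial at right, ordered by mean. Points are the 3 libraries and horizontal lines the interval that the authors' quantification gives for each library; Cars is highest at 70.2 TPM and Mars2 lowest at 1.98 TPM on average.

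The plot of levels by library shows that the range of means within each class exceeded the spread of most genes. The SD of log2(TPM + 1) over the 3 libraries had a median of 0.16 for cytosolic and 0.15 for mitochondrial genes, against 0.16 for all detected genes. The most even gene was Hars2, whose SD was 0.04, and the most variable was Aars at 0.38, followed by Nars2 and Eprs at 0.36 each. Without replicate 2 the cytosolic median was 0.085 on this scale, and without replicate 1 it was 0.18. These are SDs over 2 libraries, given without the same value for all detected genes, and are not directly comparable with those over 3.

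Paired by amino acid, the cytosolic gene was the higher one in most but not all cases. Of 14 pairs, 9 had more RNA from the cytosolic gene in 3 of 3 libraries and 5 had more from the mitochondrial gene in 3 of 3. The asparagine pair stood furthest apart, with Nars 3.79, 2.90 and 3.18 above Nars2 on the log2(TPM + 1) scale, a TPM ratio of 11.3 as a geometric mean. The ratio was 9.55 for Sars over Sars2, 7.77 for Yars over Yars2 and 5.63 for Aars over Aars2. It was 3.77 for tryptophan, 2.82 for leucine, 2.42 for valine, 2.09 for arginine and 1.61 for cysteine. In the cysteine pair the difference was 1.09, 0.25 and 0.69, so both genes were high and nearly level in replicate 2.

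The direction was opposite for histidine, threonine, phenylalanine and isoleucine. Hars lay 1.90, 1.80 and 1.66 below Hars2 on the log2(TPM + 1) scale, a TPM ratio of 0.27. Tars had 0.51 times the TPM of Tars2, Farsa and Farsb 0.65 and 0.68 times that of Fars2, and Iars 0.83 times that of Iars2. The isoleucine difference of -0.24 ± 0.08 and the Farsb difference of -0.53 ± 0.08 were not kept in the read-based tables, which gave 0.26 ± 0.14 and 0.00 ± 0.16. There, 10 pairs had the cytosolic gene higher in 3 of 3 libraries, 3 the mitochondrial gene and 1 was mixed.

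**Figure D2:**
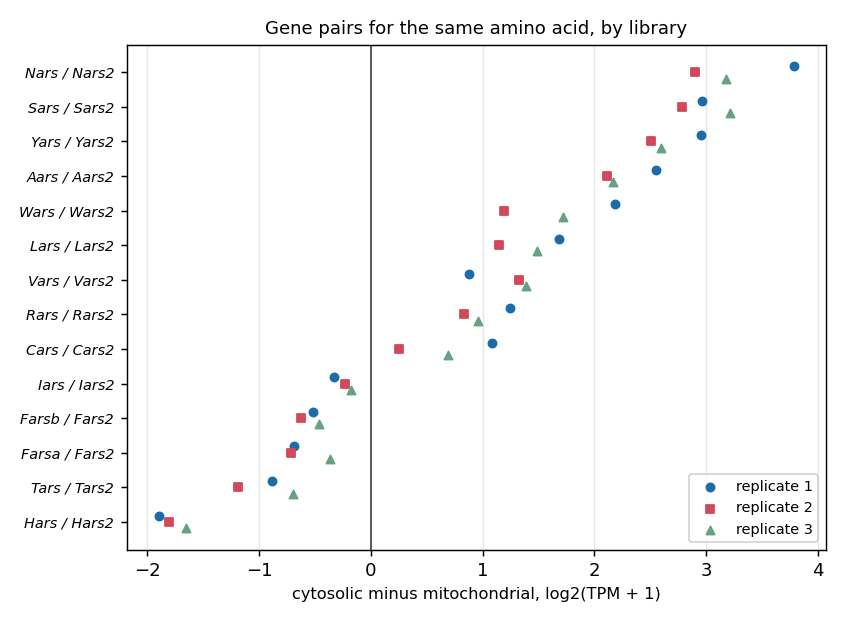
Cytosolic minus mitochondrial level of the 14 gene pairs in each library, on the log2(TPM + 1) scale, ordered by mean. The vertical line marks equal levels; 9 pairs lie to its right and 5 to its left in all 3 libraries, and replicate 2 is leftmost in 11 of 14.

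In the plot of pairs, the smallest cytosolic minus mitochondrial difference fell in replicate 2 for 11 of 14 pairs and in replicate 1 for 3, in the read-based tables for 8 and 4 pairs. The pairs with Fars2 share that gene, so these counts are not of independent pairs.

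Most cytosolic genes were lowest in replicate 2. Of the 19 cytosolic genes, 13 had their lowest TPM in replicate 2, against 39.3% of all detected genes, and the other 6, which were Farsa, Farsb, Hars, Iars, Qars and Vars, in replicate 1. For replicate 2 the same number held in the read-based and rescaled tables. After TMM or DESeq2 scaling the number was 11, against 34.1 and 34.0% of detected genes. Their median deviation in replicate 2, the difference from the mean of replicates 1 and 3, was -0.21 on the log2(TPM + 1) scale, against -0.03 for all detected genes. Also 13 of 19 were highest in replicate 3, against 31.7% of detected genes, but 6 in the read-based tables, against 28.6%, and 5 after rescaling without short and rRNA-like features, against 22.7%. Of the 16 mitochondrial genes, 3 were lowest in replicate 2 and 10 in replicate 1, against 34.9% of detected genes, and the 10 became 7 in the read-based tables and 14 after TMM scaling, against 38.6% of detected genes there. The mitochondrial median deviation in replicate 2 was 0.10, but -0.02 in the read-based tables. Over all 35 genes, 6 were highest in replicate 1 against 39.4% of detected genes, 8 were highest in replicate 2 against 28.9%, and 3 were lowest in replicate 3 against 25.8%. The first of these counts was 12 in the read-based tables, against 39.8%, and 14 after rescaling, against 48.9%, and the last was 6, against 27.9%, and 5, against 34.9%.

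For single genes a library was called different when the interval given by the authors' quantification lay wholly outside those of both other libraries. Replicate 2 lay below for Aars, Cars, Eprs and Rars, 4 of 35 genes, against 5.41% of detected genes. Aars had 34.4, 20.4 and 31.1 TPM in replicates 1, 2 and 3, and the interval of replicate 2 reached 22.4 whereas those of the others began at 29.4 and 27.7. Rars had 34.5, 24.4 and 32.5 TPM, and Cars and Eprs have been given above. In each of these 4 genes replicate 2 was apart and replicates 1 and 3 lay close to each other, except that replicate 3 of Eprs also lay above the others. Wars, with 20.4, 12.4 and 16.6 TPM, deviated by -0.53 in replicate 2, but its intervals in replicates 2 and 3 touched. Of these genes, Aars is the one whose promoter window with the ATF4 element is printed above. The window of Eprs lacked the element, and Cars, Rars and Wars had no window to search.

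Other calls were fewer. Replicate 2 lay above for Qars, 1 of 35 genes, against 1.4% of detected genes. Replicate 3 lay above for Eprs, Sars and Mars2, 3 of 35, against 1.91%, and Sars had 38.6, 34.9 and 52.0 TPM. Replicate 1 lay below for Cars2, 1 of 35, against 2.49%. Replicate 1 lay above for 0 of 35 genes, against 6.31%, and replicate 3 below for 0 of 35, against 0.945%. Every one of these 9 gene and library calls kept its highest or lowest library in the read-based tables and after TMM, DESeq2 and rescaled scaling. The level of the intervals is not stated, and they cover the quantification of 1 library, not the spread between cultures. For 2 genes, Eprs and Qars, the TPM itself lay outside its own interval in at least 1 library. In replicate 1 the TPM of Eprs was 54.9, above its interval, which ended at 53.8. That value lay within the replicate 3 interval, which began at 54.3, so the replicate 3 call for Eprs holds for the intervals only.

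Genes of the integrated stress response were low in the same library. This list was chosen with earlier results of these data known, so its counts describe it and are not an independent check. Of 16 genes of this list, 15 were lowest in replicate 2, against 39.3% of all detected genes. The exception was Shmt2, which makes one-carbon units from serine in mitochondria. The median deviation of the list was -0.69 in replicate 2, 0.33 in replicate 1 and 0.23 in replicate 3. Under the other 4 tables or scalings 13 to 15 genes were lowest in replicate 2, against 34.0 to 38.7% of detected genes. The medians of the list in replicate 2 were then -0.58 to -0.75. Atf4, the transcription factor itself, had 48.9, 41.9 and 52.0 TPM in replicates 1, 2 and 3. Ddit3, a stress-induced transcription factor gene, had 95.1, 54.8 and 82.0 TPM, and Asns, the asparagine synthetase gene, 5.58, 3.55 and 10.4 TPM. Replicate 2 was the lowest library in all 3, by less in Atf4 than in the other two genes. The highest of the list was Slc3a2, the heavy chain of amino acid transporters, at 107 ± 17 TPM, and the lowest was Slc7a5, its leucine-carrying partner, at 1.09 ± 0.60 TPM. In the read-based tables Slc3a2 had 255, 292 and 254 TPM in replicates 1, 2 and 3, so replicate 2 was its highest library there. Slc7a5 had 5.76 ± 4.70 TPM in those tables and was not the lowest of the list.

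**Figure D3:**
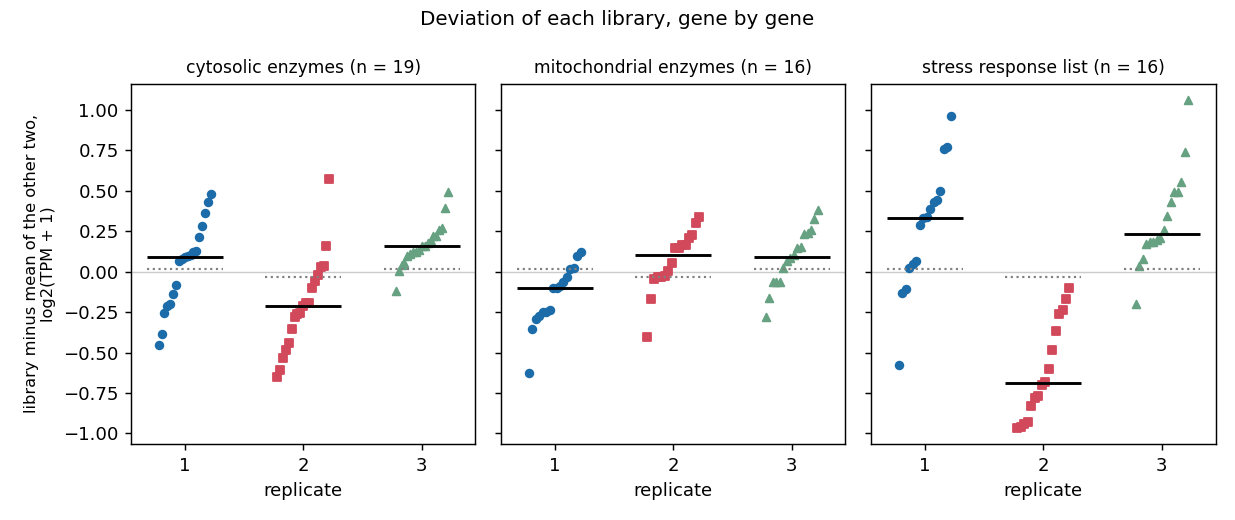
Difference of each library from the mean of the remaining ones on the log2(TPM + 1) scale, for the 19 cytosolic enzyme genes, the 16 mitochondrial ones and the 16 genes of the stress response list. Points are genes, solid lines the median of the group and dotted lines the median of all detected genes; in replicate 2 the medians are -0.21, 0.10 and -0.69.

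The plot of deviations shows the medians of the cytosolic enzyme and stress response genes below the dotted line in replicate 2 and that of the mitochondrial genes above it. The element TGATGNAA was present in the window of 4 cytosolic genes that were lowest in replicate 2 and of 1 that was not, Iars. Of the 7 cytosolic genes whose window lacked it, 4 were lowest in replicate 2, and so were 5 of the 7 cytosolic genes without a window. Among all detected genes with a window, 133 of 285 with the element and 3832 of 9678 without it were lowest in replicate 2, which is 46.7% and 39.6%. Replicate 2 also began from the least RNA, 250 ng, and of the 6 macrophage markers 3 were lowest and 3 highest there. With 1 library per amount of RNA, the amount and the library cannot be told apart, and the part of either in these differences was not tested.

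Interferon genes followed another order. The 7 reference genes were also chosen with earlier results of these data known. Of them, 6 were detected and all 6 were highest in replicate 1, against 39.4% of detected genes. Their median deviation was 0.68 in replicate 1, -0.38 in replicate 2 and -0.40 in replicate 3 on the log2(TPM + 1) scale. Mx1 at 2148 ± 703 TPM was the highest of them and Gbp2 at 49.9 ± 22.6 TPM the lowest. Ido1, which degrades tryptophan, was at 0.12, 0 and 0 TPM in replicates 1, 2 and 3. Wars was highest in replicate 1 as well and lowest in replicate 2. Of the 6 interferon genes, 4 were lowest in replicate 3, against 25.8% of detected genes, and 2 in replicate 2, against 39.3%.

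The genes that act around the enzymes showed no single order of libraries. Of 4 kinases that start the integrated stress response, Eif2ak2, the sensor of double-stranded RNA, had the highest level at 218 ± 41 TPM, and Eif2ak4, the sensor of uncharged tRNA, had 29.2 ± 4.2 TPM. The lowest was Eif2ak3, the sensor of the endoplasmic reticulum, at 7.82 ± 0.55 TPM. Among elongation factors that take up charged tRNA, Eef1a1 of the cytosol had 206 ± 7 TPM and Tufm of the mitochondrion 5.46 ± 0.52 TPM. Of 4 genes for editing and related proteins, which remove wrongly joined amino acids, Prorsd1 was the highest at 8.44 ± 1.53 TPM, Dtd2 was the lowest detected at 3.04 ± 0.41 TPM and Dtd1 was not detected.

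Much of the RNA of the enzyme genes was assigned to transcripts annotated as holding a retained intron. These transcripts made up at least 20% of the TPM of 29 of 35 genes, against 53.9% of genes with a coding transcript and at least 1 TPM, and at least 50% in 12 of 35, against 27.6%. The median share was 48.9 ± 3.4% for cytosolic and 28.2 ± 0.8% for mitochondrial genes (SD, n = 3), against 25.4 ± 1.1% for those genes. Mars2, Pars2 and Rars2 have no annotated transcript of this type. Among genes that have one, the medians were 48.9% in 19 cytosolic, 40.3% in 13 mitochondrial and 46.8% in 6584 genes. Of the 32 enzyme genes that have one, 90.6% reached a share of 20% and 37.5% a share of 50%, against 87.1 and 44.5% of the 6584 genes. As shares of expected counts, which do not divide by length, the medians were 27.0 ± 4.8% and 24.4 ± 2.8%.

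The share differed more between genes than between the libraries of most genes. Ears2 had 84.2, 87.7 and 97.0% of its TPM in retained-intron transcripts in replicates 1, 2 and 3. Farsa had 91.9, 87.9 and 78.5%, with 1.5 ± 2.6% in coding transcripts. Vars, Qars and Hars2 had 80.6 ± 2.2, 79.8 ± 3.1 and 75.1 ± 3.3%. Eprs had 74.4 ± 1.6%, mostly in Eprs-204 and Eprs-207 with 21.2 ± 1.3 and 20.0 ± 0.9% each, beside 24.4 ± 1.6% in the coding Eprs-201. At the other end, Sars had 19.2 ± 1.8% and Wars2 16.8 ± 8.1%, and Yars2, for which such a transcript is annotated, had 0%. In Aars, 44.9 ± 5.1% lay in the coding Aars-201 and 32.5 ± 1.6% in the retained-intron transcript Aars-205, and replicate 2 was the lowest in both. Aars-201 had 13.5, 9.49 and 15.3 TPM and Aars-205 had 11.2, 6.96 and 9.63 TPM in replicates 1, 2 and 3. Among transcripts marked for nonsense-mediated decay, Wars2-203 reached 22.5 ± 3.9% of its gene, but 1.9% in the read-based tables.

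**Figure D4:**
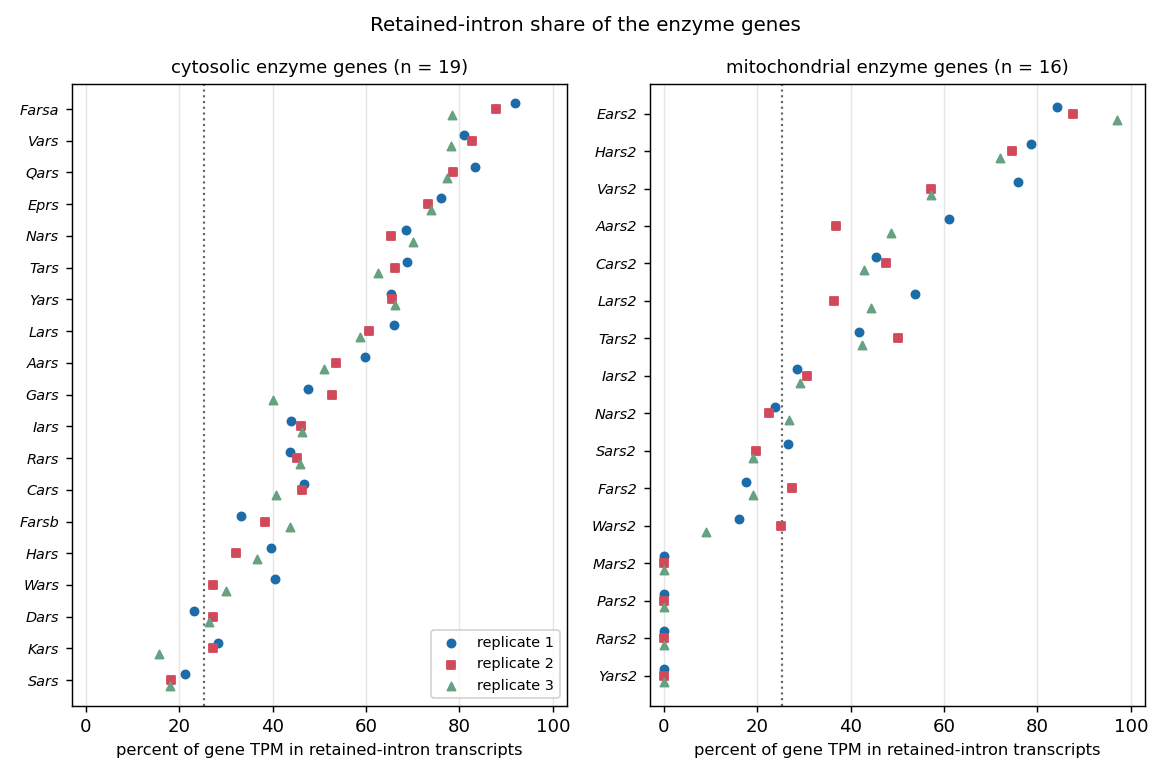
Percent of each gene's TPM in transcripts annotated as retaining an intron, in the 3 libraries, cytosolic genes at left and mitochondrial at right. The dotted line is the median of 25.4% over 10629 genes with a coding transcript and at least 1 TPM. An average of at least 20% is reached by 18 of 19 cytosolic and 11 of 16 mitochondrial genes, against 53.9% of those genes. Among the 6584 of them with an annotated transcript of this type, the median is 46.8% and 87.1% reach 20%.

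The plot of retained-intron shares also shows Aars2 and Lars2 with the lowest share in replicate 2, at 36.9% and 36.5%, and the highest in replicate 1, at 61.1% and 53.7%. All such shares rest on the authors' division of reads among transcripts with common exons.

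The read-based tables gave other levels for some genes. Their mean was at least 2 times the alignment-based mean for Kars, Tars2 and Rars2, 3 of 35 genes, against 16.7% of detected protein-coding genes. Kars was 3.05 times as high there, with 47.0 ± 4.6% of its read-based TPM in the retained-intron transcript Kars-206, against 23.7 ± 7.0%. Tars2 had 71.5 ± 11.9 TPM there, with Cars and Nars alone above it. Lars2 had 22.4, 38.5 and 19.9 TPM, with 19.3 TPM in replicate 2 from the coding Lars2-201 against 4.60 and 4.79 TPM in replicates 1 and 3. The order of the highest genes was the same at the top, with Cars at 89.5 ± 14.5 and Nars at 85.4 ± 12.2 TPM.

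Several enzyme genes share sequence or a start region with a neighbour, and the sources used here do not say whether counting was stranded. Hars and Hars2 lie head to head with starts 197 bases apart and 198 bases in common, so reads from the shared part may be divided between them with error. Iars2 shares 2034 bases with the opposite-strand Rab3gap2, which had 88.3 ± 9.7 TPM against 17.5 for Iars2. Farsb overlaps 2315 bases of Sgpp2 on the other strand and 1479 bases of 4833412K13Rik, an unclassified gene on its own strand with 14.8 ± 0.5 TPM. Fars2 shares 4562 bases with Gm48766, an unclassified gene on the same strand with 9.11 ± 0.62 TPM. Wars2 shares 4352 bases with Gm43024 and 3463 with Gm42717, both on its own strand, which had 3.07 ± 0.18 and 2.60 ± 0.26 TPM. Cars2 shares 984 bases with Naxd, which had 28.5 ± 0.3 TPM, Wars 544 bases with Wdr25, and Ears2 89 bases with Ubfd1. Rars2 starts 13 bases from Orc3, Yars 33 from S100pbp and Kars 75 from Terf2ip, each pair without overlap. Orc3 had 72.8 ± 3.3 TPM against 14.5 for Rars2. S100pbp had 19.8 ± 2.0 TPM against 31.9 for Yars, and Terf2ip 3.45 ± 0.45 TPM against 5.57 for Kars. Each of these pairs of neighbours differed in level by more than its spread. Levels of the overlapping genes are therefore uncertain.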

How the data were processed

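Total RNA sequencing of the chromatin fraction was available for 3 libraries of 1 group. For each library the authors deposited, on mm10 with GENCODE M21 per the files' README notes, a gene and a transcript table with expected counts and TPM estimated from alignments to the transcriptome, and a transcript table with estimated counts and TPM derived directly from reads. The tools and versions are not given in the sources used here. TPM scales each library to 1 total, so abundant or very short RNAs lower all other values. The TPM interval of each library in the gene table is the authors' own, with no stated level.

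The members and the gene lists were chosen with earlier results of these data known. The rule for named genes took every member, and of each list the highest and lowest detected gene, those at 0, and Atf4, Ddit3, Asns and Ido1; 1 gene that it takes is not reported here. Aimp2, Qrsl1, Eif2ak4, Dtd1, Shmt2, Cd3d and the neighbours of enzyme genes lie outside this rule and were named after their values were seen. Values were put on the log2(TPM + 1) scale, on which low genes differ by less than on a plain log scale. Expected counts were rounded for edgeR 4.0.16 (TMM) and DESeq2 1.42.0 under R 4.3.3, used for scaling only. Counts in rows of no gene were 1.24, 0.482 and 0.228% of the total and were left out. Replicate pairs differed by 30.3, 38.0 and 17.4 in chi-square per degree of freedom, so none was a duplicate. Other steps ran in Python 3.11.15 (pandas 2.3.3, numpy 2.4.6), and figures were drawn with matplotlib 3.10.9. The steps were tested on simulated data. Alternatives covered the quantification, scaling, pseudocount, filters and each replicate left out in turn. The single group allows no comparison of conditions. PCR reads are not independent molecules, and the depth of 14609979 to 24162551 counts limits the precision of low genes.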

Additional observations from a re-analysis of the deposited data

How the results depend on the processing

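No paired analysis was possible because the libraries form 1 group, with no second group whose samples could be matched to them. The cytosolic minus mitochondrial difference kept its direction under the 10 alternatives that apply to it. The cytosolic median of log2(TPM + 1), 4.57, was 5.20 in the read-based tables, 5.45 after rescaling without short and rRNA-like features and 4.36 after TMM scaling. The mitochondrial median, 3.15, was 3.45, 3.98 and 2.91 under the same settings, 3.05 after DESeq2 scaling, 2.99 with a pseudocount of 0.1 and 3.44 among genes with a mean count of at least 100. The retained-intron medians were 53.5 and 24.5% in the read-based tables and 27.0 and 24.4% as shares of expected counts for cytosolic and mitochondrial genes, and 41.0% for mitochondrial genes of at least 5 TPM. Leaving out each replicate gave median SDs over 2 libraries of 0.085 (without replicate 2) to 0.18 for cytosolic and 0.10 to 0.13 for mitochondrial genes. The medians over all 3 libraries were 0.16 and 0.15. In the read-based tables Iars minus Iars2 was 0.26 and so changed sign from -0.24, and Farsb minus Fars2 was 3.4e-05, within its SD of 0.16, against -0.53. The cause of these shifts was not tested, apart from fewer genes or samples where an alternative leaves some out. Over all settings, 75 of the main results' values stayed the same and 16 moved. Among the other values, which include those of single genes and pairs, 423 stayed the same, 109 moved and 2 reversed. Depth limits Pars2 in particular.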
